A study of Mus musculus with 12 samples.

Results

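The mouse miR-23, miR-27 and miR-24 clusters give 5 3p-arm miRNAs, mmu-miR-23a-3p, mmu-miR-23b-3p, mmu-miR-27a-3p, mmu-miR-27b-3p and mmu-miR-24-3p (written below without the species prefix), and these are described here across small RNA libraries of mouse testis. The members were picked by name, and 5 of the 1915 miRNA names in the deposited table are theirs. Total RNA came from testes of male C57BL/6 mice aged 4 months, and small RNAs of 17 to 40 bases were sequenced by a low-input library method called 10ng-seq. The RNA was sequenced after or before oxidation with sodium periodate (NaIO4), from 10, 50 or 100 ng. The 6 groups were 10 ng after oxidation, 50 ng after, 100 ng after, 10 ng before, 50 ng before and 100 ng before, with 2 technical replicates each and 12 libraries in all. All 6 groups shared strain, sex, age and tissue, and each tube carried methylated and unmethylated spike-in RNAs in proportion to its input. The labels do not say how many mice gave the RNA, so the p-values below measure the spread between technical replicates and not between animals. In such bulk RNA, fewer cells of a type and less RNA per cell cannot be told apart.

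A miRNA guides Argonaute proteins to messenger RNAs, mainly through its seed, bases 2 to 8 from the 5′ end, and lowers the output of those messages. In the mouse the clusters are a pair of paralogous gene groups, each holding one miR-23, one miR-27 and one miR-24 hairpin, and they are known from studies of blood vessels, muscle, fat and T cells. Periodate breaks open the 3′ ribose of an RNA whose 2′ and 3′ hydroxyls are both free, and such an RNA can no longer be joined to the 3′ adapter. An RNA with a 2′-O-methyl group at its 3′ end, as HENMT1 adds to piRNAs, is spared. Most mammalian miRNAs lack that group, so the comparison of oxidised with unoxidised RNA asks how much of each miRNA is left.

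In the GRCm38 (mm10) annotation one cluster lies at chr8:84208518-84208921 on the plus strand, and its 404 bases hold Mir23a, Mir27a and Mir24-2. Mir23a and Mir27a overlap no other annotated gene there, while Mir24-2 overlaps the long noncoding RNA gene Gm26532. The other cluster spans 792 bases at chr13:63300484-63301275, also on the plus strand, and holds Mir23b, Mir27b and Mir24-1. It lies inside 2010111I01Rik (Aopep in RefSeq), which is on the same strand, and overlaps Fancc on the opposite strand. Mir23b overlaps no exon, Mir27b overlaps an exon of 1 annotated transcript and Mir24-1 overlaps exons of 4.

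The mature sequences that tell the members apart are given 5′ to 3′ from RefSeq (GRCm38.p6), with the seed in capitals; 4 of the 5 members matched an entry.
miR-23a-3p: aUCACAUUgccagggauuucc
miR-27a-3p: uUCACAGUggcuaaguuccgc
miR-27b-3p: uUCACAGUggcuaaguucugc
miR-24-3p: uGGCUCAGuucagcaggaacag
The miR-27a-3p and miR-27b-3p molecules share their seed and differ at 1 of 21 positions, C19U, with the miR-27a-3p base first and positions counted from 1 at the 5′ end. The seeds of miR-23a-3p and miR-27a-3p also differ at 1 position, U7G, with the miR-23a-3p base first. The seed of miR-24-3p differs from both at 7 of 7 positions.

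The same miR-24-3p is cut from a hairpin in each cluster. The hairpins are printed because they show why its reads carry no cluster of origin, and the capitals mark the mature arm.
Mir24-2 (chromosome 8): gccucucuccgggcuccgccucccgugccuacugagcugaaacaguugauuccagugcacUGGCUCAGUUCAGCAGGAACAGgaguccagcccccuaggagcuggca
Mir24-1 (chromosome 13): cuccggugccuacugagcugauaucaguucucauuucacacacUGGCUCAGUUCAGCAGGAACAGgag
The miR-27 arms differ between the clusters, the deposited table lists miR-23a-3p and miR-23b-3p as separate names, and reads of miR-24-3p cannot be assigned to a cluster. Since miR-27a-3p and miR-27b-3p differ at 1 base, near the 3′ end, the treatment of mismatched or shortened reads can move reads between this pair. The sources used here do not give it.

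Values are in RPM, reads scaled to a library total of 1000000. Counts of reads were recovered from the RPM steps, which put 1924201 to 3347735 reads in the denominator of a library. The miRNA table held at most 937 reads in a library after oxidation and 326701 to 454158 before. A limit of 3 reads, set here for a count of 0, corresponded to 0.896 to 1.56 RPM per library. The intervals and limits given cover counting error only. Tests used limma on log2(RPM + 1) over the 141 miRNAs that averaged at least 5 RPM, with Benjamini-Hochberg adjustment over those 141 and a threshold of 0.05. A log2 difference on that scale understates the change of a low miRNA.

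Before oxidation, miR-27b-3p and miR-24-3p made up most of the members' reads, and miR-23a-3p, miR-27a-3p and miR-23b-3p were low. The level of miR-27b-3p before oxidation averaged 232 ± 26.2 RPM (SD, n = 6 libraries over the 3 inputs), which ranked 39 among all miRNA names. The level of miR-24-3p averaged 171 ± 27.5 RPM (SD, n = 6) and ranked 49. The order of these neighbours held in each input, but their ranges over the inputs overlapped. Far below them, miR-23a-3p averaged 17.4 ± 3.18 RPM, miR-27a-3p 15.2 ± 7.65 RPM and miR-23b-3p 14.8 ± 4.82 RPM (SD, n = 6 each). These 3 levels did not differ beyond their spread.

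As a share of the members' summed RPM before oxidation, miR-27b-3p held 51.8% ± 2.94 and miR-24-3p held 37.9% ± 1.87 (SD, n = 6). The shares of miR-23a-3p, miR-27a-3p and miR-23b-3p were 3.86% ± 0.237, 3.23% ± 1.28 and 3.22% ± 0.764 (SD, n = 6). By cluster, the chromosome 13 arms that can be assigned (miR-23b-3p plus miR-27b-3p) summed to 247 ± 30.3 RPM before oxidation, and the chromosome 8 arms (miR-23a-3p plus miR-27a-3p) to 32.6 ± 10.7 RPM (SD, n = 6). The excess of the chromosome 13 arms was in miR-27b-3p, since the miR-23 arms of both clusters were at similar levels. Together the 5 members held 0.349% ± 0.0296 of all miRNA RPM before oxidation (SD, n = 6).

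**Figure D1:**
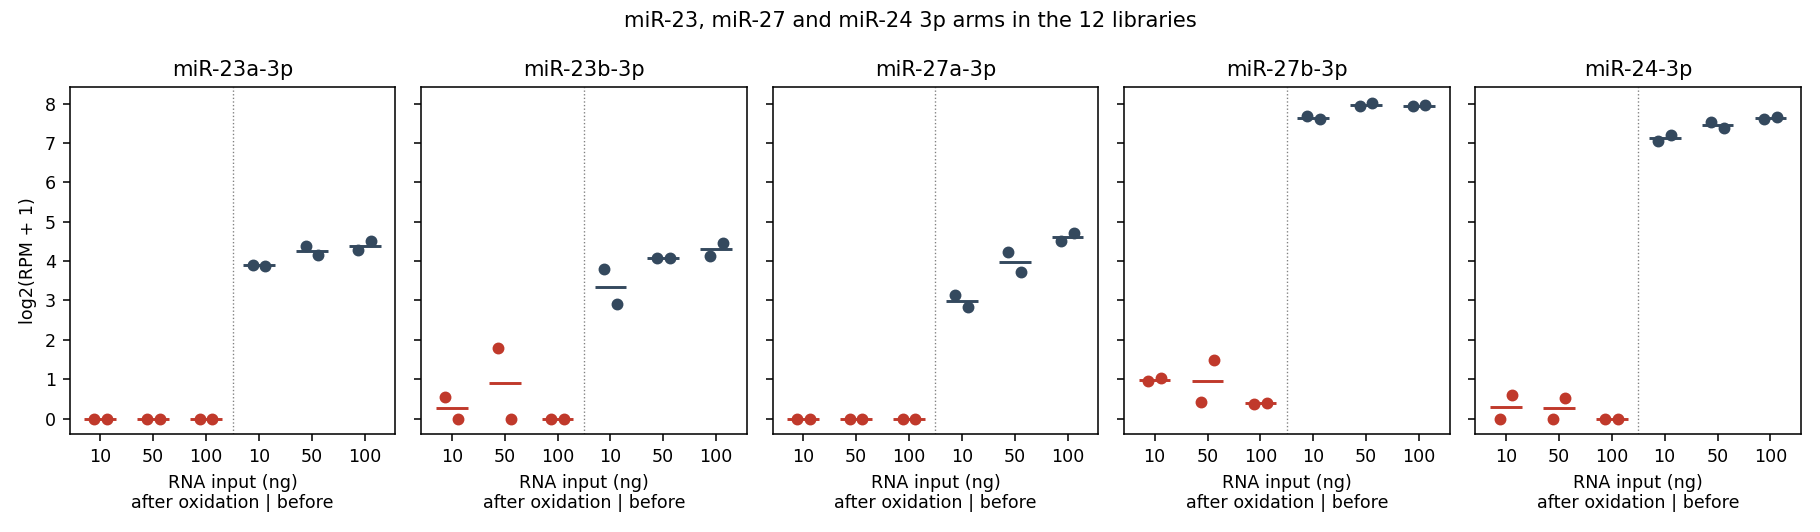
Level of each of the 5 members in all 12 libraries as log2(RPM + 1), 1 panel per member, against RNA input in ng, with the groups after oxidation left of the dotted line and those before it on the right. Each point is 1 technical replicate and each bar the mean of 2; the after-oxidation points lie at or below 2.44 RPM, on the deposited scale, and the before-oxidation points at or above 6.17 RPM.

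All 5 members were lower after oxidation than before, in RPM, and the oxidation test called 97.2% of the 141 tested miRNAs lower. The members' groups did not overlap, and the share of tested miRNAs with such a gap was not counted. The direction turned for miR-23a-3p, miR-27a-3p and miR-23b-3p when the median miRNA was set equal in every library, and each was then called higher. It also turned for miR-23b-3p and miR-27b-3p in edgeR, which called neither, and in DESeq2, which called both higher. The 2 programs set their scaling from the tested miRNAs, whose median log2 difference was -4.16 in edgeR and 0.73 in DESeq2. Whether that scaling turned the signs was not tested. DESeq2 gave miR-23a-3p and miR-27a-3p no adjusted p. The most abundant member, miR-27b-3p, had 0.925 and 1.04 RPM at 10 ng, 0.349 and 1.78 RPM at 50 ng, and 0.299 and 0.316 RPM at 100 ng after oxidation. Before oxidation it had 203 and 195 RPM at 10 ng, 244 and 257 RPM at 50 ng, and 243 and 249 RPM at 100 ng. The highest library after oxidation thus stood over 100 times below the lowest before. Pooled over inputs, 11 reads were left. The rate of pooled reads, that is all reads of the miRNA over the summed denominators of the 6 libraries, was, after oxidation, 0.300% of that before (95% counting interval 0.150 to 0.538%), or 333-fold lower (186 to 668). The log2 difference was -7.08 ± 0.17 (SE, limma, adjusted p = 7.82e-11).

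The member made by both clusters, miR-24-3p, had 0 and 0.520 RPM at 10 ng, 0 and 0.445 RPM at 50 ng, and 0 and 0 RPM at 100 ng after oxidation, which is 2 reads in 6 libraries. Before oxidation it had 131 and 146 RPM at 10 ng, 185 and 167 RPM at 50 ng, and 194 and 200 RPM at 100 ng. Oxidised libraries held at most 1 read of it each. The pooled rate after oxidation was 0.0743% of that before (95% counting interval 0.00899 to 0.269%), or 1346-fold lower (372 to 11119). The log2 difference was -7.22 ± 0.14 (SE, limma, adjusted p = 1.74e-11).

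No read of miR-23a-3p was counted in any of the 6 libraries after oxidation. Before oxidation it had 13.9 and 13.8 RPM at 10 ng, 19.8 and 16.7 RPM at 50 ng, and 18.5 and 21.6 RPM at 100 ng, from 310 reads. Set against 3 reads over the 6 oxidised libraries, it was at least 91.6-fold lower after oxidation. The fitted log2 difference was -4.18 (limma, adjusted p = 9.84e-12), a value bounded by the pseudocount because one side is at 0. The oxidised groups, all at 0, also enter the shared spread, so the p-value is small partly for that reason. This miRNA passed the 5 RPM filter only through its libraries before oxidation.

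Its cluster neighbour miR-27a-3p was likewise at 0 reads in the 6 libraries after oxidation. Before oxidation it had 7.86 and 6.17 RPM at 10 ng, 17.8 and 12.2 RPM at 50 ng, and 21.9 and 25 RPM at 100 ng, from 273 reads. It was at least 80.7-fold lower after oxidation by the same limit. The fitted log2 difference was -3.86 (limma, adjusted p = 1.99e-10), with the same limits from the pseudocount, the oxidised groups at 0 and the filter. The chromosome 8 arms that can be assigned had 583 reads before oxidation in all, and the chromosome 13 arms had 4400. A difference between the clusters in the share left was not tested. After oxidation the chromosome 8 arms gave no read, and the chromosome 13 arms gave 19 reads.

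Of those, 8 were miR-23b-3p, and 7 of the 8 came from a single library, replicate 1 of 50 ng. That miRNA had 0.462 and 0 RPM at 10 ng, 2.44 and 0 RPM at 50 ng, and 0 and 0 RPM at 100 ng after oxidation. Before oxidation it had 12.9 and 6.53 RPM at 10 ng, 15.9 and 15.8 RPM at 50 ng, and 16.5 and 21.0 RPM at 100 ng. The groups did not overlap, but the gap is narrower than for the other members. The pooled rate after oxidation was 3.39% of that before (95% counting interval 1.45 to 6.78%), or 29.5-fold lower. Without replicate 1 of 50 ng after oxidation, 1 read was left and the share was 0.519% (0.0131 to 2.92%). The log2 difference over all libraries was -3.52 ± 0.30 (SE, limma, adjusted p = 1.64e-06).

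The oxidation test called 5 of 5 members lower, against a background of 97.2% of the 141 tested miRNAs called lower and 1.42% called higher. The members' count is therefore near what the whole table gave and is no result about them. The same 5 of 5 were called lower within 10 ng, 50 ng and 100 ng, where the background was 96.5%, 95.7% and 95% of the tested miRNAs called lower, and 1.42%, 0.709% and 0% called higher. All 5 members passed the 5 RPM filter through their libraries before oxidation, since the highest of them averaged 0.785 RPM after it, so a difference was built into their passing. Over the 141 tested miRNAs the median log2 difference was -6.02 (quartiles -7.88 and -4.18). The differences of miR-24-3p and miR-27b-3p ranked 46 and 48 from the lowest, and those of miR-23a-3p, miR-27a-3p and miR-23b-3p ranked 106, 115 and 124.

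**Figure D2:**
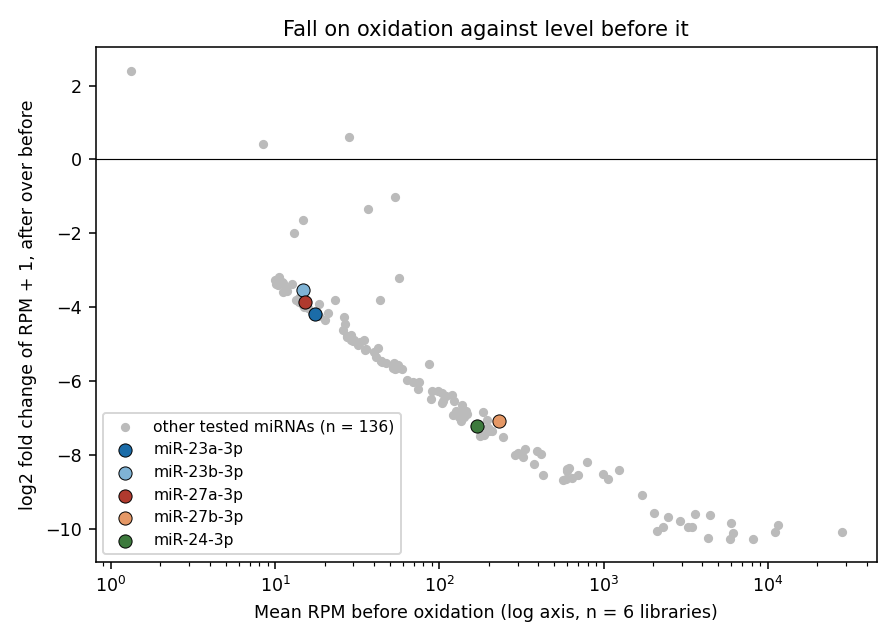
Difference in log2(RPM + 1), after minus before oxidation, averaged over inputs, against the level before oxidation in RPM on a log axis, for the 141 tested miRNAs, with the 5 members coloured and 136 others in grey. The members lie at -7.22 to -3.52, and low miRNAs show smaller differences because the pseudocount bounds them.

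In summed RPM, the 5 members had 1.43 ± 1.00 RPM after oxidation, from 21 reads, and 450 ± 65.1 RPM before, from 8020 reads (SD, n = 6 libraries each). In pooled reads, the rate of the 5 together after oxidation was 0.295% of that before (95% counting interval 0.183 to 0.452%). Their share of all miRNA RPM was 0.510% ± 0.444 after oxidation and 0.349% ± 0.0296 before (SD, n = 6 each), a difference smaller than the spread among oxidised libraries. Without replicate 1 of 50 ng after oxidation, the members had 13 reads and 0.224% was left. Over the 141 tested miRNAs, the median share left was 0.0907% (quartiles 0 and 0.194%), and 45 of them had no read after oxidation.

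The shares left can be set beside those of miRNAs of like level. Among the 30 tested miRNAs with 100 to 300 RPM before oxidation, the median share left was 0.148% (quartiles 0.0644 and 0.231%), against 0.300% for miR-27b-3p and 0.0743% for miR-24-3p. The counting interval of miR-24-3p includes that median, and the lower bound of miR-27b-3p, 0.150%, lies just above it. Among the 31 with 10 to 25 RPM before, 23 had no read after oxidation, as miR-23a-3p and miR-27a-3p had none. The upper quartile of that set was 0.176%, and miR-23b-3p, which belongs to it, stood above at 3.39%, from 8 reads. Without replicate 1 of 50 ng after oxidation it was at 0.519%, which is 1 read. With most of the set at 0, 1 read at that level is enough to stand above the quartile. Methylated spike-in RNA, which periodate spares, had 212579 to 300939 reads per library after oxidation and 28325 to 42523 before.

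Among the unoxidised libraries, miR-27a-3p was the member that changed most with input. Its mean at 10 ng was 29.9% of its mean at 100 ng, and at 50 ng it was 64.1%. The replicates at 10, 50 and 100 ng did not overlap, with 22 and 17 reads, 46 and 41 reads, and 65 and 82 reads behind them. The log2 difference of 10 minus 100 ng was -1.61 ± 0.18 (SE, limma, adjusted p = 0.000153), and that of 50 minus 100 ng was -0.63 ± 0.18, which did not pass (limma, adjusted p = 0.0804). Over the tested miRNAs the median of the 10 minus 100 ng difference was -0.49, with quartiles -0.90 and 0.36, and miR-27a-3p ranked 11 of 141 from the lowest.

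The 10 minus 100 ng test before oxidation called 2 of 5 members lower and none higher, where 34.8% of the tested miRNAs were called lower and 19.1% higher. The second call was miR-23a-3p, at 69.0% of its 100 ng mean, with a log2 difference of -0.50 ± 0.13 (SE, limma, adjusted p = 0.00998). That equals the shift of the median miRNA, and the call was lost when libraries were centred on the median miRNA (limma, adjusted p = 0.564) or scaled to the methylated spike-ins (limma, adjusted p = 0.150). The standard errors of miR-23a-3p and miR-27a-3p are small partly because their oxidised groups, all at 0, enter the shared spread. With the unoxidised 10 and 100 ng libraries alone in the fit, miR-23a-3p did not pass (limma, adjusted p = 0.234), nor did it with no filter (limma, adjusted p = 0.0545) or in edgeR (adjusted p = 0.606).

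The remaining members had values in the same direction that did not pass in the fit of all 12 libraries. With the unoxidised 10 and 100 ng libraries alone in the fit, all 3 passed. In limma the adjusted p was 0.000147 for miR-24-3p, 0.00909 for miR-27b-3p and 0.0403 for miR-23b-3p. That fit called 72 of the 141 tested miRNAs lower and 30 higher. At 10 ng miR-23b-3p was at 51.6% of its 100 ng mean, with a log2 difference of -0.94 ± 0.52 (SE, limma, adjusted p = 0.144). It passed without replicate 1 or replicate 2 of 50 ng after oxidation, whose spread enters the shared estimate (limma, adjusted p = 0.0328 and 0.0320), and in DESeq2 (adjusted p = 0.0220). The level of miR-24-3p was at 70.4% (-0.50 ± 0.24, SE, limma, adjusted p = 0.0984). The level of miR-27b-3p was at 80.8% (-0.31 ± 0.29, SE, limma, adjusted p = 0.397), and its sign turned under 4 other scalings. The median tested miRNA was at 72.5% of its 100 ng level at 10 ng (quartiles 52.7 and 130%). So miR-24-3p and miR-27b-3p sit between the quartiles, and miR-23b-3p just below the lower one.

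In all 5 members both 10 ng values lay below both 100 ng values before oxidation, as they did for 59.6% of the tested miRNAs. For miR-27a-3p, miR-24-3p and miR-23b-3p every 10 ng value was below every 50 ng value and these below every 100 ng value, an order that 28.4% of the tested miRNAs showed. Between 50 and 100 ng before oxidation, limma called none of the 141, and 0% is the background in either direction; 24 miRNAs, 1 of them a member, had an unadjusted p under 0.05. At 50 ng the members were at 64.1 to 102% of their 100 ng means. After oxidation, no member was called between 10 and 100 ng, where 1.42% of the tested miRNAs were called lower and 0% higher. None was called between 50 and 100 ng after oxidation either, where 1.42% were called lower and 2.84% higher. No member had an unadjusted p under 0.05 in either test, while 14 and 16 of the tested miRNAs did.

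Other RNAs also moved with input before oxidation. The unmethylated spike-ins, added in proportion to input, had 1473 and 1601 RPM with 10 ng, 3867 and 3477 RPM with 50 ng, and 4895 and 4802 RPM with 100 ng, on the same denominators. The methylated spike-ins had 10860 and 10284 RPM with 10 ng, 13809 and 12117 RPM with 50 ng, and 13409 and 12964 RPM with 100 ng. The part of this gradient in the members' values was not tested. Scaled to the methylated spike-ins, miR-27a-3p kept its call, as it did in 20 of 20 alternatives that gave it an adjusted p, with log2 differences of -1.77 to -0.98 (limma or edgeR, adjusted p = 2.96e-05 to 0.00688). DESeq2 gave it no adjusted p.

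**Figure D3:**
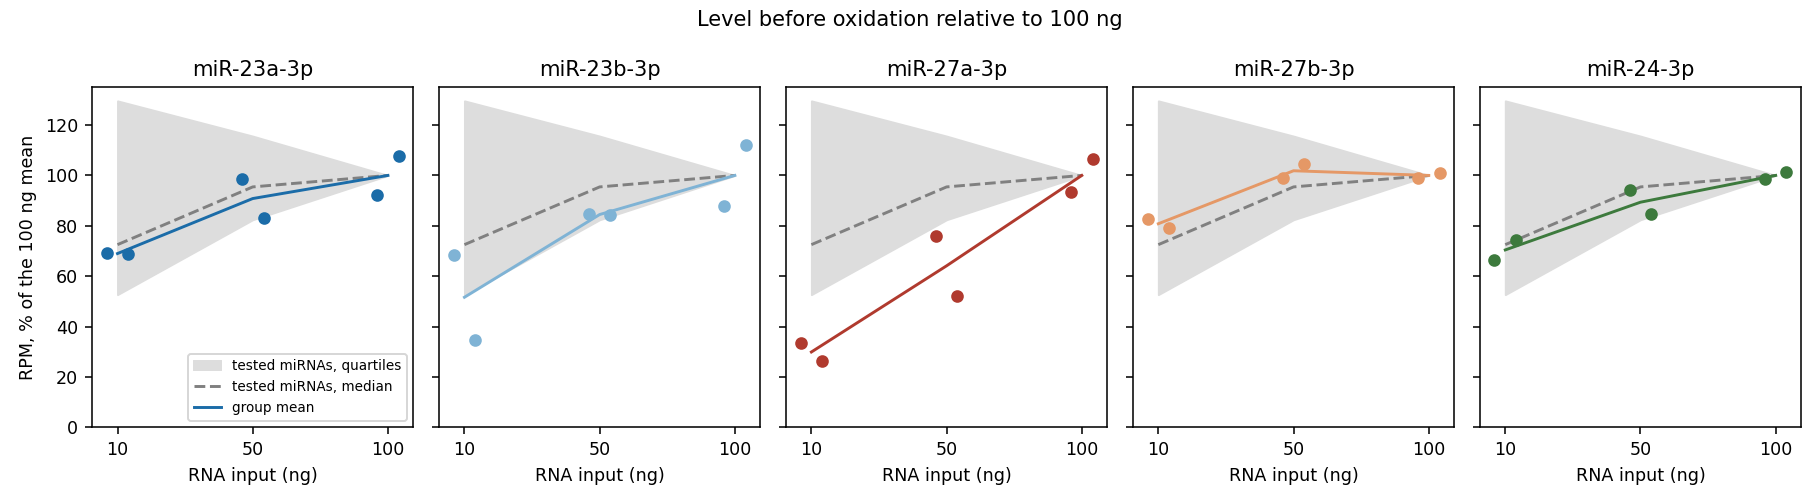
Level of each member before oxidation in percent of its own 100 ng mean, against the 3 inputs in ng at equal spacing, with 1 point per technical replicate and a solid line through the means. The grey band and dashed line are the quartiles and median of the 141 tested miRNAs. At 10 ng miR-27a-3p stands at 29.9% and the other members at 51.6 to 80.8%.

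Within the miR-27 pair, the ratio of miR-27a-3p to miR-27b-3p before oxidation was 0.0387 and 0.0317 for 10 ng, 0.0731 and 0.0476 for 50 ng, and 0.0900 and 0.10 for 100 ng. The inputs did not overlap, and the ratio was lowest at 10 ng. It rose by 1.38 on the log2 scale per 10-fold more input, with an exact two-sided permutation p of 0.0111, the smallest that 90 arrangements of the 6 libraries can give. Adjusted over the 5 ratios computed, p was 0.0556, which is also the smallest that 1 ratio alone could reach, so no lone ratio could pass a threshold of 0.05. Both miRNAs come from the same libraries, so a scaling factor cancels in this ratio.

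The other ratios showed no trend that passed. The ratio of miR-23a-3p to miR-23b-3p was 1.08 and 2.11 for 10 ng, 1.24 and 1.06 for 50 ng, and 1.12 and 1.03 for 100 ng, a slope of -0.51 (exact permutation p = 0.144, adjusted 0.241). One 10 ng library, with 18 reads of miR-23b-3p, gave the value of 2.11. The ratio of both miR-27 arms to miR-24-3p lay between 1.37 and 1.62 in the 6 libraries, with a slope of -0.09 (exact permutation p = 0.511, adjusted 0.511). The slopes of miR-23 to miR-24 and of miR-23 to miR-27 were 0.23 (exact permutation p = 0.367, adjusted 0.458) and 0.33 (exact permutation p = 0.1, adjusted 0.241).

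**Figure D4:**
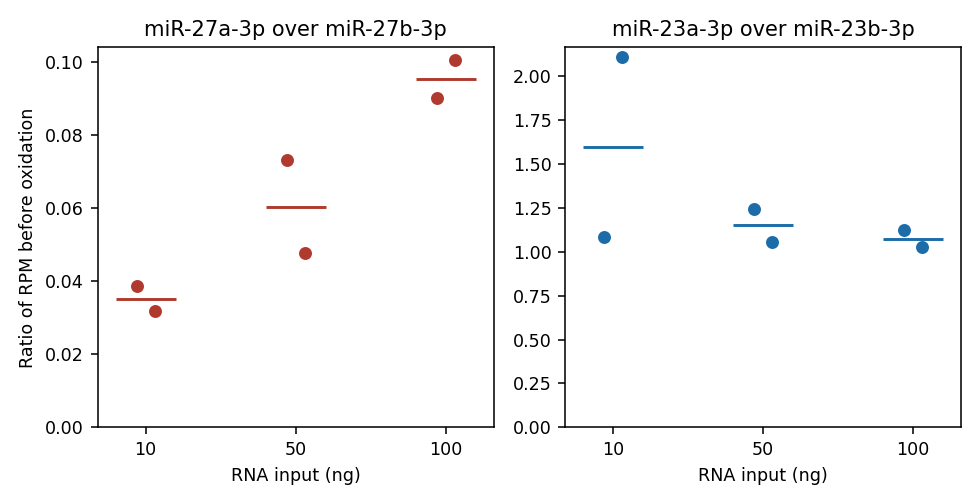
Ratio of RPM within the miR-27 pair (left) and the miR-23 pair (right) before oxidation, on linear axes that start at 0, against the 3 inputs in ng at equal spacing, with 1 point per technical replicate and bars at the means. The miR-27a-3p to miR-27b-3p ratio runs between 0.0317 and 0.10, while miR-23a-3p to miR-23b-3p stays between 1.03 and 2.11.

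The test of whether the oxidation difference itself changed with input, 10 minus 100 ng, called 1 of 5 members, miR-27a-3p, higher at 1.61 ± 0.26 (SE, limma, adjusted p = 0.00216). Of the tested miRNAs 24.1% were called higher and 12.8% lower. An F test over the 3 inputs called 33.3% of them, among them miR-27a-3p (limma, adjusted p = 0.00662). For 50 minus 100 ng the background was 0% either way. Since miR-27a-3p was at 0 in every oxidised library, this value is its 10 minus 100 ng difference before oxidation with the sign turned, and it adds no measurement of the oxidised RNA. It was not called in edgeR (adjusted p = 1.00), and DESeq2 gave it no adjusted p. The values of the members that did not pass were 0.50 for miR-23a-3p (limma, adjusted p = 0.0531), 0.81 for miR-24-3p (limma, adjusted p = 0.0832), 0.91 for miR-27b-3p (limma, adjusted p = 0.109) and 1.22 for miR-23b-3p (limma, adjusted p = 0.199). Since miR-23a-3p was also at 0 in every oxidised library, its value too is the difference before oxidation with the sign turned. With 1 library left out, the values ran from 0.40 to 0.61 for miR-23a-3p and 0.50 to 1.11 for miR-24-3p. For miR-27b-3p they ran from 0.86 to 0.95 and for miR-23b-3p from 0.78 to 1.66. The call of miR-27a-3p held whichever library was left out, and whether another member was called depended on the library.

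The opposite arms of the hairpins, usually degraded after Argonaute loading, were close to 0 before oxidation. No read of miR-23a-5p or miR-23b-5p was counted in any library. Over the 6 unoxidised libraries there were 12 reads of miR-24-2-5p, 5 of miR-27a-5p, 4 of miR-27b-5p and 2 of miR-24-1-5p, against 8020 reads of the 3p arms. The 5 reads of miR-27a-5p were all in the 100 ng libraries, with 3 and 2 reads. None of the 6 opposite arms had a read after oxidation, and none passed the filter. In the deposited piRNA table, none of 1018402 sequences lay inside any of the 6 hairpins.

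By a fixed measure, the root mean square difference of log2 profiles centred on their own means, the miRNAs most like the members' sum over the 6 unoxidised libraries were miR-143-3p at 0.0543, miR-16-5p at 0.0584 and miR-146b-5p at 0.0872, where the median of the others was 0.317. Over the 6 group means they were miR-192-5p at 0.220, miR-21a-5p at 0.430 and miR-878-3p at 0.448, where the median was 1.25.

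The tissue label was checked against miRNAs known from its cell types. The 5 miRNAs listed for germ cells all passed the filter, led by miR-741-3p at 28164 RPM before oxidation. The Sertoli cell list, miR-202-5p and miR-202-3p, had 137 and 21.1 RPM before. For cells outside the seminiferous tubule, miR-143-3p, miR-145a-3p and miR-145a-5p of smooth muscle had 11546, 136 and 7.99 RPM before. The last of them did not pass the filter. Of the endothelial pair, miR-126a-3p had 68.9 RPM before, and miR-126a-5p had 2.23 RPM and did not pass. For striated muscle, miR-1a-3p had 97.6 RPM before and passed, miR-133a-3p had 2.10 RPM and miR-206-3p was at 0 in all libraries. The liver miRNA miR-122-5p had 1.82 RPM before and did not pass. Of 6 blood cell miRNAs none passed, and miR-142a-3p and miR-223-3p were at 0 in all libraries.

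Summed marker lists also differed between inputs before oxidation, and their miRNAs did not all go the way of the members. The endothelial pair summed to 66.1 and 53.4 RPM at 10 ng, 72.5 and 66.6 RPM at 50 ng, and 85.0 and 83.5 RPM at 100 ng, and the 1 that passed the filter, miR-126a-3p, was not called between 10 and 100 ng (limma, adjusted p = 0.0635). The Sertoli cell pair averaged 107 RPM at 10 ng, 173 RPM at 50 ng and 193 RPM at 100 ng in sum. Within it miR-202-5p was called lower at 10 than at 100 ng (limma, adjusted p = 0.0143) and miR-202-3p higher, at 41.3 RPM against 8.80 RPM (limma, adjusted p = 4.35e-05).

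The striated muscle list averaged 61.1 RPM at 10 ng, 119 RPM at 50 ng and 119 RPM at 100 ng, and miR-1a-3p was called lower at 10 than at 100 ng (limma, adjusted p = 0.0420). The smooth muscle list, with 2 of 3 past the filter, averaged 9194 RPM at 10 ng, 12231 RPM at 50 ng and 13644 RPM at 100 ng. Most of that is miR-143-3p, and miR-145a-3p had 134 RPM at 10 ng against 116 RPM at 100 ng; neither was called. The germ cell list averaged 36933, 39918 and 43692 RPM over the same inputs, mostly from miR-741-3p, with 21119 RPM at 10 ng and 33886 RPM at 100 ng. Within that list miR-449a-5p was called lower, at 8.09 RPM for 10 ng against 38.5 RPM for 100 ng (limma, adjusted p = 9.48e-05). The levels of miR-741-3p and of miR-34c-5p, the latter at 1125 against 2204 RPM, were not called. The other way, miR-871-3p had 6871 RPM at 10 ng against 2980 RPM at 100 ng and was called higher (limma, adjusted p = 0.00566). On the same side, miR-470-5p had 7809 RPM against 4583 RPM and was not called. The blood cell list averaged 0.545, 2.54 and 2.94 RPM over the inputs, and the liver miRNA 3.94, 1.03 and 0.490 RPM. Their part in the members' values was not tested.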

How the data were processed

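The deposited miRNA table holds RPM per miRNA name and library, and the deposited piRNA table holds RPM per sequence; the denominator is not named in the sources used here. Reads were mapped with Bowtie, and the builds mm10 and hg38 are listed, per the submitters' processing notes. The deposited spike-in table holds read counts. Reads per miRNA were recovered from the smallest RPM step of the piRNA table (all piRNA values whole within 0.01 reads), and all members' values came out whole. Of miRNA values, 93.24 to 100% came out whole, and the rest in sixths.

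The model was limma on log2(RPM + 1) for the 141 of 1915 names with a mean of at least 5 RPM, with 6 group means sharing 1 estimate of spread. It was checked on data simulated at the read levels of the unoxidised libraries. That check does not cover falls to few or no reads, as after oxidation. Ratios were tested by exact permutation. The members and lists were chosen with earlier results of these data known. Named miRNAs were the members, their opposite arms, marker lists and the 3 nearest profiles. Replicates of each group differed beyond sampling noise, so each counted separately. Alternatives were other pseudocounts, filters and scalings, edgeR and DESeq2 on rounded recovered reads, a replicate block, the compared libraries alone, and leaving out each library.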

Additional observations from a re-analysis of the deposited data

Results flagged for a closer look

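The value of miR-23b-3p in replicate 1 of 50 ng after oxidation, 2.44 RPM from 7 reads, stood apart from the other 5 oxidised libraries, which held 0 to 0.462 RPM. Its gap to the next library was 0.811 of the whole range, above Dixon's critical value of 0.625 for 6 samples. The 6 libraries span 3 inputs, and 8 such sets were looked at. The critical value is made for normally distributed values, where chance marks about 1 set in 20. Counts that are mostly 0 are not of that kind, and the rate for them was not tested.

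The oxidation difference of miR-27a-3p differed between 10 and 100 ng by 1.61 on the log2(RPM + 1) scale (limma, adjusted p = 0.00216), with 0 reads in all oxidised libraries. The value is therefore fixed as the difference between inputs before oxidation with its sign turned, it was not called in edgeR, and DESeq2 gave it no adjusted p.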

How the results depend on the processing

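Of 5 members called lower after oxidation over all inputs, 2 were called with a 50 RPM filter, which tests 2 members. After median centring, which removes a loss shared by most miRNAs, 2 were called lower, and 0 by edgeR and by DESeq2. Both count models set their scaling from the tested miRNAs, and whether that took away the calls was not tested. In edgeR miR-23a-3p was at -7.69 and miR-27a-3p at -7.34, without passing (adjusted p = 0.624 and 0.632). By input the calls were 2, 2 and 2 with that filter, 1, 2 and 2 centred, and 0 with the count models. The signs turned for miR-23a-3p (centred 2.02), miR-27a-3p (centred 2.35), miR-23b-3p (centred 2.69, edgeR 0.73, DESeq2 4.01) and miR-27b-3p (edgeR 0.89, DESeq2 1.31). Centred, the turned values were called higher (limma, adjusted p = 3.07e-08 for miR-23a-3p, 9.3e-08 for miR-27a-3p and 1.45e-05 for miR-23b-3p). DESeq2 also called its turned values higher (adjusted p = 1.49e-07 for miR-23b-3p and 0.0246 for miR-27b-3p), and edgeR called neither. Of the tested miRNAs, 69 were called higher centred, 8 by edgeR and 19 by DESeq2. The median over tested miRNAs was 0.19 centred, -7.61 on methylated spike-ins, -4.16 in edgeR and 0.73 in DESeq2. Over all tested miRNAs, 296 were called lower with no filter, 66 at 50 RPM, 60 centred, 13 by edgeR and 8 by DESeq2, against 137.

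For 10 minus 100 ng before oxidation, 5 members were called with a pseudocount of 10, 4 in the compared libraries alone, 1 with no filter, centred, on spike-ins, by edgeR and by DESeq2, and 0 at 50 RPM, against 2; without single libraries 2 to 3. miR-27b-3p turned to 0.073 centred, 0.012 on spike-ins, 0.039 in edgeR and 0.017 in DESeq2. Calls over all tested miRNAs were 23 lower and 37 higher centred, 39 and 40 on spike-ins, and 33 and 42 by edgeR. In the compared libraries alone they were 72 and 30, against 49 and 27 in the main fit. Calls lower were 26 with a pseudocount of 0.1, 75 with 10, 80 with no filter, 13 at 50 RPM and 30 by DESeq2. For 50 minus 100 ng, 1 member was called with a pseudocount of 10 or on spike-ins, against 0, and miR-27b-3p ran from -0.013 (without replicate 2 of 50 ng before) to 0.065 without single libraries. The oxidation difference changed with input for 5 members with a pseudocount of 10, 2 in the compared libraries alone and 0 at 50 RPM, by edgeR and by DESeq2, against 1; without single libraries 1 to 2. Slopes without single libraries ran from -0.99 to -0.0063 (miR-23a to miR-23b), -0.059 to 0.51 (miR-23 to miR-24), -0.23 to 0.0047 (miR-27 to miR-24), 0.17 to 0.50 (miR-23 to miR-27) and 1.26 to 1.57 (miR-27a to miR-27b). Where no construction is named, the cause was not tested.

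Replicate numbers did not pair the libraries (2 of 15 group pairs correlated over 0.1). The replicate block left the members' calls at 5 after oxidation, 2 between 10 and 100 ng and 1 for the change with input. The exclusion giving 0.519% for miR-23b-3p was chosen after seeing the data. With 0 to 11 reads per member over the 6 oxidised libraries, read number limits the values after oxidation.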
